A study of Caenorhabditis elegans with 2 samples.

Results

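The pooled EFL-3 peak list held 457 strong autosomal peaks that lay in introns and outside promoters, of 30000 pooled peaks in all. They were chosen from the 3000 pooled peaks with the largest signal. A peak was kept when its summit was not on the X chromosome and lay outside every window from 1000 bp upstream to 500 bp downstream of a protein-coding transcript start. It also had to lie inside a protein-coding gene and in no annotated exon of that gene. Of the 5299 autosomal pooled peaks that met the position rule at any rank, these 457 were 8.62%. Of the 2563 autosomal peaks within rank 3000 they made up 17.8%, beside 1174 in promoter windows, 471 in intergenic sequence and 461 in exons. The pooled signal chose the peaks, so their signals and ranks are given as a description, and no test was made on them.

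The study was chromatin immunoprecipitation with sequencing (ChIP-seq) in whole Caenorhabditis elegans, with 1 group of 2 biological replicates and no comparison between groups. The animals were larvae of the L1 stage, aged 6 hours, of mixed sex, and starved as L1 after bleaching. They came from strain OP344, which carries the unc-119 mutation tm4063 and the transgene wgIs344. That transgene holds efl-3 (sequence name F49E12.6) with TY1, EGFP and FLAG tags, plus a wild-type unc-119 copy, and an antibody to GFP was used. The signal is therefore that of a tagged protein from a transgene in a mixture of all larval cell types, and the untagged efl-3 gene was present as well. The scale of the signal value that the authors' peak caller gave to each peak is not stated, and read depth is unknown.

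E2F proteins bind DNA through a winged-helix domain and are known for controlling genes of DNA replication and the cell cycle. EFL-3 is an atypical E2F related to mammalian E2F7 and E2F8, which carry a pair of DNA-binding domains, need no DP partner and mostly repress. Introns of C. elegans can hold enhancers, internal promoters and whole small RNA genes such as those for snoRNAs, which guide the modification of other RNAs, and tRNAs.

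The sequences of 10 of these peaks are given by kind. All are 201 bases centred on the summit, on the strand of the host gene, from the RefSeq genome of the ce11 (WBcel235) build. The first 3 are shown because a small RNA gene lies at the summit. Capitals mark that RNA gene as far as it reaches into the window and, in pxn-1 and F58G1.7, an upstream match to ACCC and CATGTC with any 4 bases between them, a spaced word picked after these sequences were seen.
pxn-1, chrV:8500456-8500656, plus strand: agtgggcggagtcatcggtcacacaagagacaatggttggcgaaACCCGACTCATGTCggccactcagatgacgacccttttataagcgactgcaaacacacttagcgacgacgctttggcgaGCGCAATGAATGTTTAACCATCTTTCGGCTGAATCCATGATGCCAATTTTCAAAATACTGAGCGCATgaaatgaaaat
F58G1.7, chrII:12944866-12945066, minus strand: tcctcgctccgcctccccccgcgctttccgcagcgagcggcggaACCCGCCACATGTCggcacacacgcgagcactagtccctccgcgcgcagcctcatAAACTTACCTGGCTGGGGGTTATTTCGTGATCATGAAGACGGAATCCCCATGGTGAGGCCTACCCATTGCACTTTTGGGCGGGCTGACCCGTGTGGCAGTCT
frm-7, chrV:12303509-12303709, plus strand: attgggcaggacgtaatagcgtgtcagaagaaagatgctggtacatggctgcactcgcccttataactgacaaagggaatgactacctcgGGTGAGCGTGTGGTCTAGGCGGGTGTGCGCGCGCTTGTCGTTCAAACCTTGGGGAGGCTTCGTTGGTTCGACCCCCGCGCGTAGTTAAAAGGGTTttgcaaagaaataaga

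The next 3 are shown for their GA-rich or CT-rich runs. Capitals mark matches to GAGAGAGA and, in Y111B2A.12 and pqn-41, to GAGACGCAG, on either strand.
Y111B2A.12, chrIII:12612582-12612782, plus strand: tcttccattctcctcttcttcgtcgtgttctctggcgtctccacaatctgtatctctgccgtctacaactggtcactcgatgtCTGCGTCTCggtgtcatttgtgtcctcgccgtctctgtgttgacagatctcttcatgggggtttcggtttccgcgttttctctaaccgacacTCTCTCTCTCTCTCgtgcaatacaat
pqn-41, chrIII:1925313-1925513, plus strand: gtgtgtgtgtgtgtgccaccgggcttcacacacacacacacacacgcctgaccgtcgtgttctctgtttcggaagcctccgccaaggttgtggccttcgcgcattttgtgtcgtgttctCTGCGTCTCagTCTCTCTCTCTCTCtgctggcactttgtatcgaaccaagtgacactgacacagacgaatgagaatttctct
egl-18, chrIV:1911328-1911528, plus strand: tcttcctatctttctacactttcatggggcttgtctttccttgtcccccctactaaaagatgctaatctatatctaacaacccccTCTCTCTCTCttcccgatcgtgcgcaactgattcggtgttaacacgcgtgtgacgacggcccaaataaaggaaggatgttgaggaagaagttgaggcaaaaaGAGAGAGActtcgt

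The last 4 are the peak in the efl-3 gene itself and the 3 strongest peaks with an E2F consensus match. Capitals mark a GC box (CCGCCC, either strand) in efl-3 and the E2F consensus in the others, plus the GAGACGCAG word in epg-9.
efl-3, chrII:8415563-8415763, plus strand: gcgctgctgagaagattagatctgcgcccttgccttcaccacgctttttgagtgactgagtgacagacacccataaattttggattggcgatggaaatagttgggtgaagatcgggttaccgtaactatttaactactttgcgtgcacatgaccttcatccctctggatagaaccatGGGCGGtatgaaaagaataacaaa
epg-9, chrIV:2602062-2602262, plus strand: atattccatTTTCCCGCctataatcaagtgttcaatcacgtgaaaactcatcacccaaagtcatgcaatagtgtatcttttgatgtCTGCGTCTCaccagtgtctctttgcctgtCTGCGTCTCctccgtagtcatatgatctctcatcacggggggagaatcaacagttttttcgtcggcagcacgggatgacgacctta
klf-1, chrIII:2876027-2876227, plus strand: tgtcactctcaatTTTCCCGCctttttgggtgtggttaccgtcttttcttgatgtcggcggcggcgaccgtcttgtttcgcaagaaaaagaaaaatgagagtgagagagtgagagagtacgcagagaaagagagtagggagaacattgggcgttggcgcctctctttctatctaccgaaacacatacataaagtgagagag
T28B11.1, chrV:10717126-10717326, minus strand: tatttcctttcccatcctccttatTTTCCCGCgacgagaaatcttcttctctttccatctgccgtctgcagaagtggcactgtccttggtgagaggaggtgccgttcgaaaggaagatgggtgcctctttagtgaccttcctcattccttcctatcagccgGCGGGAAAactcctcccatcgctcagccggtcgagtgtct

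The strongest intronic peaks ranked high in both replicate lists. The peak in ppfr-1, which encodes a regulatory subunit of protein phosphatase 4, had pooled rank 3 and a signal of 483.6, with a signal of 271.4 at rank 2 in replicate 1 and 111.7 at rank 43 in replicate 2. Its summit lay in intron 4 at chrI:9383158, inside the antisense RNA gene anr-20 and the noncoding gene F16A11.7, and 44.7% of the 50-base words of its window occur elsewhere in the genome. Reads from such copies cannot be told apart. The peak in pxn-1, which encodes a peroxidasin of the extracellular matrix, had pooled rank 7 and a signal of 388.4, with 192.5 at rank 10 in replicate 1 and 192.8 at rank 4 in replicate 2. Its summit lay in intron 17, which is 341 bp long, 23 bp upstream of the snoRNA gene ZK994.7.

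Below these the signal fell quickly. Y111B2A.12 followed at pooled rank 33 with a signal of 256.0 and ranks 20 and 66 in replicates 1 and 2. In dhc-4, which encodes a dynein heavy chain, the peak had pooled rank 36 and a signal of 252.7, with ranks 34 and 46 in the replicates. W05H12.1, on chromosome I, had rank 46 and a signal of 238.3. The peak in ints-8, which encodes a subunit of the Integrator complex that processes snRNA 3′ ends, had rank 56, a signal of 219.8 and replicate ranks 80 and 41. It lay 52 bp inside rpr-1, the gene for the RNA of RNase P, on the opposite strand.

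Next came F58G1.7 at rank 58 with a signal of 218.5, its summit at the start of the snRNA gene sup-6. pqn-41, which encodes a glutamine-rich and asparagine-rich protein, held ranks 65 and 71 with signals of 212.1 and 204.6. frm-7, a gene for a FERM domain protein, had rank 70 and a signal of 205.1, with its summit 10 bp inside the snoRNA gene C51F7.4. After the peaks in efl-3 and egl-18, described below, came epg-9 (autophagy) at rank 113 with a signal of 165.9. zfp-1, which encodes a chromatin-associated zinc finger protein related to AF10, had rank 122 and a signal of 157.2, and C08D8.1 had rank 139 and a signal of 148.2 at the snoRNA gene C08D8.3. Of these 15 strongest peaks the summits of 7 lay within 200 bp of a noncoding RNA gene.

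Most of the 457 peaks were far weaker than these. The signal ran from 60.04 to 483.6 with a median of 67.99, and 262 peaks (57.3%) had a signal under 70. Only 37 exceeded 100. By the deposited −log10 q, 24 peaks had a q-value under 0.05 and 37 under 0.1. The authors' set thresholded by the irreproducible discovery rate (IDR) was the 430 strongest pooled peaks, so it held the 48 peaks here with rank 430 or better (10.5%). Over all autosomal peaks within rank 3000 that share was 13.7%, and over promoter peaks it was 21.2%. The last peaks inside the limit were in F48F5.6, flcn-1 (folliculin) and swt-7 (a SWEET sugar transporter), with signals of 60.09, 60.05 and 60.04. The next intronic peaks outside it were in unc-43 (CaMKII), C09F9.2 and unc-79 (a subunit of the NALCN channel complex), with 59.94, 59.93 and 59.92, so the limit cuts through a dense run of near-equal values.

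Both replicates entered the pooled ranking, so their overlap with it describes the peaks and is no independent check. A replicate 1 summit lay within 100 bp of 403 peaks (88.2%) and a replicate 2 summit of 406 (88.8%). Both did so for 353 (77.2%, 95% Wilson interval 73.2 to 80.9, counting error over peaks only), and neither for 1, a second ppfr-1 peak of pooled rank 883. For promoter peaks within rank 3000 the share with both was 80.7%, and for the 4842 autosomal intronic peaks ranked below 3000 it was 18.9%. The share fell with rank among the peaks here, from 12 of 12 in ranks 1 to 100 to 70.8% of 168 in ranks 2001 to 3000. Within rank 3000 in both replicate lists there were 83 (18.2%), and within rank 430 in both there were 22.

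Some of the stronger peaks ranked far apart in the replicates, among them those in psd-1, usp-39 and srt-52, which were in the IDR set. Of the 100 strongest, 87 were matched in both replicate lists, 6 had no replicate 2 summit within 100 bp and 7 no replicate 1 summit. Among the 87, the largest rank differences towards replicate 1 were in akap-1, with rank 440 in replicate 1 and 20471 in replicate 2, and in psd-1 (phosphatidylserine decarboxylase), with 307 and 18697. vhp-1, which encodes a MAP kinase phosphatase, ranked 439 and 15826, a second Y111B2A.12 peak, of pooled rank 548, ranked 531 and 8233, and C41D11.3 ranked 527 and 6052. Towards replicate 2, Y75B8A.33 ranked 13773 in replicate 1 and 445 in replicate 2, and usp-39 ranked 9314 and 206. The differences of lsy-22, with ranks 6557 and 359, of srt-52, a chemoreceptor gene, with 6338 and 148, and of fkh-7, a forkhead factor gene, with 6914 and 959, were of the same direction. Of all 353 strong intronic peaks matched in both lists, 87 had ranks at least 10 times apart.

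**Figure D1:**
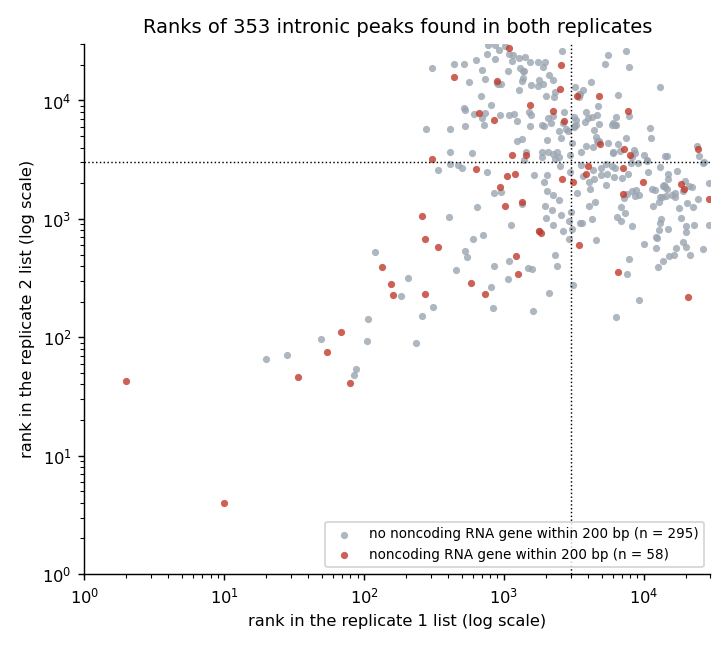
Rank in the replicate 1 list (x axis, log scale) against rank in the replicate 2 list (y axis, log scale) for the 353 strong intronic peaks with a summit within 100 bp in both lists. Red points have a noncoding RNA gene within 200 bp, grey points do not, and dotted lines mark rank 3000. The points with the best ranks in both lists lie near the diagonal, and the others spread widely. In replicates 1 and 2 the peak in srt-52 stands at ranks 6338 and 148, and that in usp-39 at 9314 and 206.

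Many of the strongest peaks lay beside noncoding RNA genes. A summit lay within 200 bp of such a gene in 77 peaks (16.9%, 95% Wilson interval 13.7 to 20.6). Among the weaker autosomal intronic peaks the share was 6.26%. Over 102252 windows tiled across all intron sequence that the position rule could reach (20.55 Mb, 24.9% of the autosomes) it was 3.50%. Intergenic and promoter peaks within rank 3000 had 20.8% and 13.7%, so a share of this size was not found in introns alone. Among the peaks here the share fell with rank: it was 6 of 12 in ranks 1 to 100, 13 of 36 (36.1%) in ranks 101 to 430, 20.2% in ranks 431 to 1000, 13.8% in ranks 1001 to 2000 and 11.3% in ranks 2001 to 3000.

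**Figure D2:**
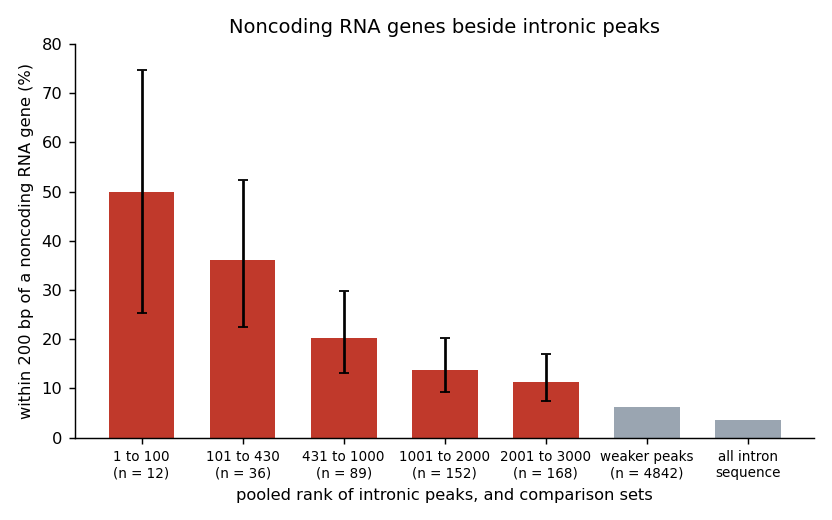
Share of peaks with a summit within 200 bp of a noncoding RNA gene (y axis, %) by pooled rank (red bars, with the number of peaks and 95% Wilson intervals). Grey bars show the same share for the 4842 weaker autosomal intronic peaks and for windows tiled over all intron sequence under the same position rule. The red bars step down from 6 of 12 to 11.3%, and the grey bars stand at 6.26% and 3.50%.

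By kind of RNA gene, 18 peaks (3.94%) were beside a snoRNA gene, compared with 0.537% of weaker intronic peaks and 0.210% of the tiled windows. tRNA genes, transcribed by RNA polymerase III from promoters inside the gene, were beside 14 peaks (3.06%, with 0.558% and 0.200% in the other sets). Genes annotated as snRNA were beside 4, and miRNA genes, for small repressors of mRNAs, beside 3. The broad class annotated only as ncRNA was beside 53 (11.6%), with 5.14% of weaker peaks and 2.96% of windows. A peak can have genes of several kinds beside it, and 36 had at least 1 snoRNA, snRNA or tRNA gene. Counted from the genes, 17 of 103 snoRNA genes in such introns (16.5%) had a peak of this set within 200 bp, as did 14 of 133 tRNA genes (10.5%), 4 of 40 snRNA genes and 63 of 1522 ncRNA genes (4.14%).

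The 77 peaks beside RNA genes differed from the other 380 in measures that the rule did not use. Their median intron was 833 bp long, against 1976.5 bp, and 15 of the 18 beside a snoRNA gene were in introns under 1000 bp. Their median GC content was 47.3%, against 41.3%. Repeated 50-base words occurred in 18 of the 77 windows and in 22 of the 380. The signal, which the rule did use, had a median of 73.8 beside RNA genes and 67.2 elsewhere, given as a description. The summit lay inside the nearest RNA gene in 32, upstream of it in 31 and downstream in 14, and that gene was on the strand of the host in 27 and on the opposite strand in 50. The other strong peaks of this kind included cutl-18 (a cuticlin-like gene) at rank 159 with a signal of 140.7, T28F4.1 at rank 185 with 134.9, and rol-3 (a receptor tyrosine kinase) at rank 236 with 122.9, 20 bp upstream of C16D9.11.

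The spaced word of ACCC and CATGTC, seen in the pxn-1 and F58G1.7 windows printed above, began 79 and 55 bp upstream of the annotated start of their small RNA genes. In snRNA genes of animals a proximal sequence element at about such a place is bound by the complex SNAPc, but whether this word is that element was not examined. Over all 457 windows, on either strand, it occurred in 4, among them Y67D2.5 at rank 2647, with no RNA gene annotated within 200 bp. It occurred in 1 of the 4842 weaker intronic windows, in 31 of the 102252 tiled windows (0.0303%) and in none of the promoter, intergenic or exonic peaks within rank 3000. GGTTCGA, the core of the B box of tRNA promoters, was in 19 of the 457 windows (4.16%) and in 1.46% of the tiled windows. It was found in 7 of the 14 windows beside tRNA genes, and it also lies inside C51F7.4 in the frm-7 sequence.

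The windows were richer in G and C than introns in general, and several motif shares moved with that. Their median GC content was 42.3%, with 38.8% for the weaker intronic peaks and 33.3% for the tiled windows, and it was 50.95% in ranks 1 to 100 and 40.8% in ranks 2001 to 3000. The E2F consensus, written as TTTCCCGC, TTTCGCGC, TTTGCCGC or TTTGGCGC on either strand, had a match in 36 windows (7.88%, 95% Wilson interval 5.74 to 10.7). The share was 6.22% at weaker intronic peaks, 5.45% at promoter peaks and 4.41% over tiled windows. Tiled windows weighted to the GC content of the peaks had 6.44%, which lies inside that interval. CHR, the element TTTGAA or TTCGAA that DREAM complexes bind, was in 39.4% of the windows. It was in 59.98% of the tiled windows and in 41.5% of them at the GC content of the peaks.

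TTTCCCGC accounted for 15 of the 36 windows, TTTCGCGC for 10, TTTGCCGC for 6 and TTTGGCGC for 5, and in 18 the match lay within 50 bp of the summit. None of the 12 peaks in ranks 1 to 100 had a match. The strongest with a match were epg-9 at rank 113, klf-1 (a Krüppel-like factor) at rank 161 with a signal of 140.5, and T28B11.1 at rank 306 with 108.2. In each the marked TTTCCCGC lay over 60 bp from the summit. They were followed by C30F12.5, with a signal of 105.1, and irx-1 (an Iroquois homeobox gene), with 80.82. dre-1 (an F-box protein of developmental timing) had 76.32, Y53F4B.21 76.04 and F32B4.8 72.66, and dmsr-2 (a peptide receptor) and pqn-27 had 71.44 and 70.38.

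GA-rich and CA-rich sequence stood further from the tiled windows than the E2F consensus did. GAGAGAGA, on either strand, was in 29 windows (6.35%), 2.11% of weaker intronic windows and 1.19% of tiled windows, or 2.39% of the latter at the GC content of the peaks. Intergenic peaks within rank 3000 had it in 11.5% and promoter peaks in 5.11%. GAGACGCAG, picked after word counts were seen, was likewise in 29 windows (6.35%), 1.92% of weaker intronic windows, 5.45% of promoter windows and 0.944% of tiled windows, or 2.35% of the latter at the GC content of the peaks. It or GAGAGAGA was in 53. ACACACAC, picked in the same way, was in 25 windows (5.47%), with 2.29% at weaker peaks, 2.64% at promoter peaks and 1.05% of tiled windows. CCGCCC was in 8.75%, 6.66% of tiled windows at the same GC content and 3.47% of all tiled windows. Among 6-base words GAGAGA had the largest gap, with 23.8% of the windows and 8.21% of tiled ones, and TAAAAA the largest in the other direction, with 32.2% and 60.7%.

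**Figure D3:**
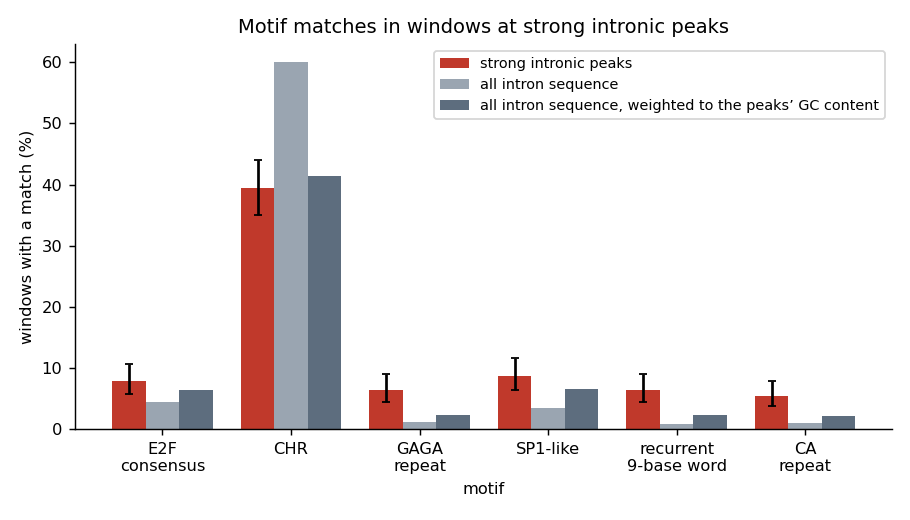
Share of 201-bp windows with at least 1 match on either strand (y axis, %) for 6 motifs (x axis). Red bars are the 457 strong intronic peaks with 95% Wilson intervals, light bars the windows tiled over all intron sequence, and dark bars the same windows weighted to the GC content of the peaks. For CHR the red bar at 39.4% stands near the weighted bar at 41.5%, and for the GAGA repeat it stands at 6.35% with 2.39% for the weighted bar.

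The peaks sat in long genes and long introns. By the longest host, 372 genes held the 457 peaks; counting every host where genes overlap, 381 of the 13445 autosomal protein-coding genes with reachable intron sequence did so (2.83%). The median host was 10063 bp long, with 8285.5 bp at weaker intronic peaks and 7809 bp over the tiled windows, which weight long genes by their intron sequence. Counted once each, all those genes had a median of 2423 bp. The share of genes that hosted a peak rose with the intron sequence available, from 0.217% of genes with under 500 bp to 30.5% of genes with 10000 bp or more. Per Mb of reachable sequence, introns of 5000 bp or more held 41.6 peaks and shorter classes 14.7 to 21.0. The median intron was 1710 bp, with 1075 bp over tiled windows and 1067 bp at weaker peaks.

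The introns nearest the start of the gene held somewhat more. Intron 1 held 103 peaks (22.5%), with 16.06% of the reachable sequence, or 31.2 per Mb. Intron 2 held 25.6 per Mb and later introns 19.3. By chromosome, III held 124 peaks or 29.7 per Mb, and the other autosomes 18.4 to 22.0. The nearest protein-coding start was 1804 bp away in the median and belonged to the host in 380 peaks. In 77 it belonged to another gene. Some of these introns are shorter than the peaks: 35 were under 100 bp, 374 were at least as long as the median peak of 380 bp, and in 42 peaks exons made up 50% or more of the 201-bp window. For these 42 a signal in the intron cannot be told apart from a signal in the exons beside it.

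Of the host genes, 313 held 1 peak, 40 held 2, 14 held 3 and 5 held 4 or more, and 84 peaks shared an intron with another. pqn-41 held 5. Of these, 4 lay in intron 14, which is 10372 bp long, with signals of 212.1, 204.6, 134.9 and 133.8. The intron is that of the longest transcript, and another pqn-41 transcript has an exon within it. In the same order, the nearest protein-coding start, in pqn-41 itself, was 2258, 1912, 3964 and 1089 bp away. All 4 were within rank 525 of both replicate lists and had a GC content of 51.7% to 56.2%. The fifth, in intron 8, had a signal of 63.17. ppfr-1 held 4, and apart from the peak of rank 3 their signals were 77.02, 71.39 and 61.22. cox-6B, which encodes a subunit of cytochrome c oxidase, held 4 in an intron of 86515 bp, with signals of 62.96 to 76.97. The genes cest-25 and gldi-9 lie within the span of cox-6B and were hosts as well, with signals of 62.96 and 65.80.

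daf-2, which encodes the insulin receptor of the worm, held 5 peaks. Those in intron 1 had signals of 90.89, 88.87 and 64.86, those in introns 12 and 6 had 69.67 and 67.14, and no daf-2 peak ranked within 430 in either replicate. The daf-2 peak of rank 493 ranked 632 and 2651 in replicates 1 and 2, and that of rank 529 ranked 1833 and 767. The peaks in introns 12 and 6 were each matched in 1 replicate only. hlh-30, which encodes a regulator of autophagy genes related to TFEB, held 4, with signals of 84.80, 80.96, 64.41 and 63.14. egl-18, a GATA factor gene of the seam cells, held 2 in an intron 1 of 11092 bp. The stronger had rank 96 and a signal of 177.6, with 92.73 at rank 105 in replicate 1 and 82.60 at rank 93 in replicate 2, and the other a signal of 63.91.

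**Figure D4:**
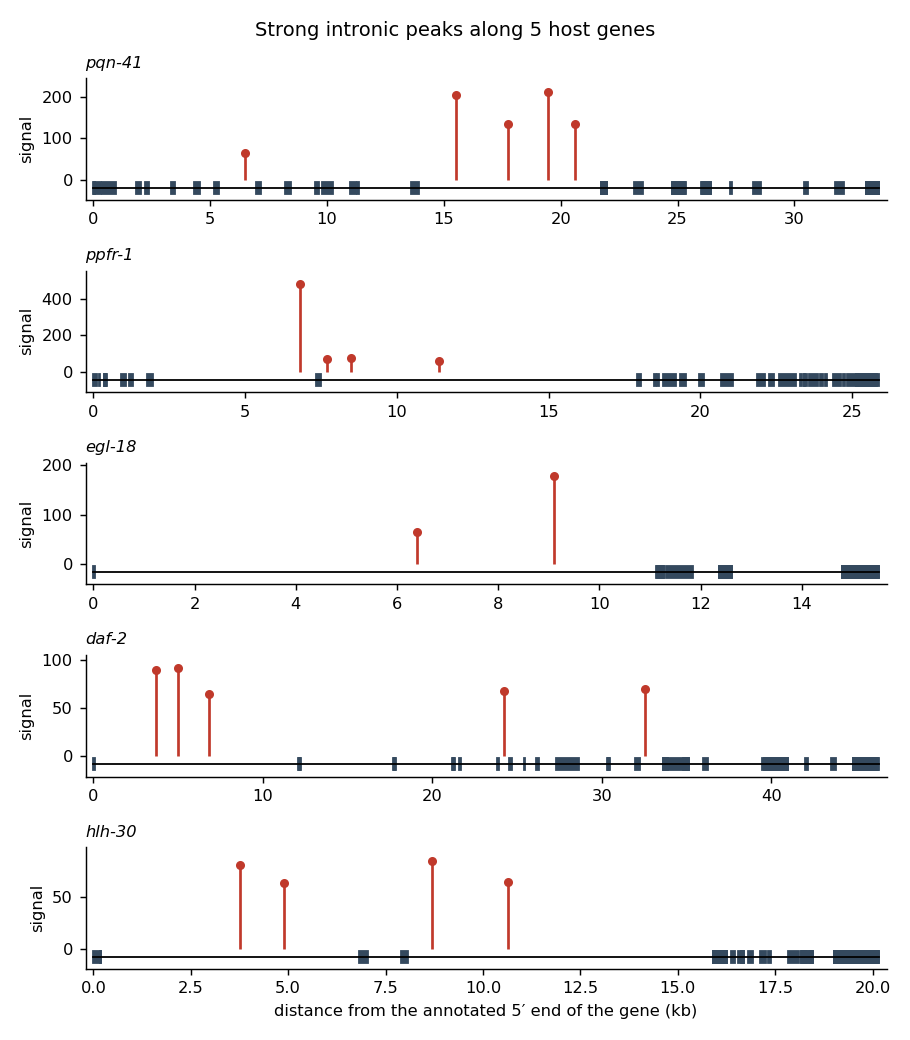
Strong intronic peaks along 5 host genes: distance from the annotated 5′ end of the gene (x axis, kb) and pooled signal (y axis, a separate scale for each gene). Red stems are peaks, dark boxes exons of any transcript and the black line the gene. In pqn-41 the 4 tall stems stand in 1 long intron, and in daf-2 3 of 5 stand in intron 1.

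The efl-3 gene itself held 2 peaks. The stronger, in its last intron, intron 7, had pooled rank 72 and a signal of 204.2, with 101.1 at rank 88 in replicate 1 and 102.4 at rank 54 in replicate 2. The other, in intron 2, had rank 1845 and a signal of 65.90, with ranks 13159 and 13095. The strain carries efl-3 sequence in the transgene as well as at its own locus, and reads from these copies cannot be told apart. The window of the stronger peak had no E2F consensus match.

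Gene lists were described by counts and by density per Mb of reachable intron sequence, beside 22.2 per Mb for all autosomal genes. Of 28 genes of the E2F, Rb and DREAM list with such sequence, 5 were hosts (17.9%, with 2.83% for all genes): efl-3, epc-1, efl-2, lin-8 and efl-1. Their 6 peaks, 2 of them in efl-3, which the transgene also carries, made 109 per Mb. Chosen from either replicate list alone, 3 genes of this list were hosts. Apart from the rank 72 peak their signals were 61.79 to 77.45, and efl-1, which encodes a typical E2F, had 61.79 at rank 2573. In replicates 1 and 2 the efl-2 peak ranked 1433 and 3655, and the lin-8 peak 14577 and 3404. The epc-1 and efl-1 peaks were matched in replicate 2 only, at ranks 723 and 1054. Weaker intronic peaks of this list stood at 217 per Mb, with 236 for all genes. No strong intronic peak lay in lin-35, lin-9, lin-53, lin-54, dpl-1, lin-39, egl-1 or unc-119. The insulin, starvation and autophagy list had 7 hosts of 41 genes (17.1%) and 16 peaks, or 108 per Mb. From the replicate 1 and 2 lists alone it had 7 and 6 hosts. Its hosts were epg-9, daf-2, hlh-30, skn-1, daf-16, pptr-1 and age-1. Its weaker intronic peaks stood at 365 per Mb, with 236 for all genes, a smaller gap than for the strong peaks.

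By density most other lists lay closer to all genes, but by share of hosts some did not. The share of hosts rose with the intron sequence per gene, as given above, and was not adjusted for it. The cell adhesion and axon guidance list had 11 hosts of 47 (23.4%) and 31.6 peaks per Mb, its strongest in hmr-1 (a cadherin) with a signal of 77.04. These 47 genes had 379.9 kb of reachable sequence. Their weaker intronic peaks stood at 347.5 per Mb, with 235.6 for all genes, so weaker peaks were denser there too. GTPase regulators and the actin cytoskeleton had 11 hosts of 61 (18.03%) and 40.7 per Mb, led by anc-1 (a giant nuclear anchor protein) with 103.3. The epidermis list, led by egl-18, had 7 hosts of 47 and 50.95 per Mb. Weaker intronic peaks of the actin and epidermis lists stood at 267.2 and 382.1 per Mb. The lists overlap, so their counts are not separate. Peaks of vab-10 and unc-70 count in the actin, epidermis and muscle lists, and that of hmr-1 in the adhesion and epidermis lists. That of unc-73 counts in the adhesion and actin lists, and those of col-99 in the basement membrane and collagen lists. Basement membrane genes, led by pxn-1, had 3 hosts of 20. Wnt, Notch, EGF and TGF-beta genes had 5 of 60, led by daf-5 (a Ski and Sno relative) with 99.36. Chromatin modifiers had 1 host, let-526 (a SWI/SNF subunit), with 3 peaks and a top signal of 131.2, but 3 hosts from either replicate list alone.

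Several further lists were led by single genes. In the cell cycle list the top signal was 86.98 in cyd-1 (cyclin D), among 4 peaks in 2 of 49 genes. vab-10, a spectraplakin gene, led the muscle list with 93.98, and osm-9, a TRPV channel gene, led the ion channels with 78.05. ain-2 led the heterochronic list with 77.84, asd-2 (a STAR splicing regulator) the RNA-binding list with 74.15, atf-7 the intestine list with 71.90 and pqn-8 the pharynx list with 64.71. nhr-34 led the nuclear hormone receptors with 99.09, with 5 hosts of 239, and col-99, a membrane collagen, led the collagens with 80.22 and held the 3 peaks of that list, which made 101 per Mb over 29.8 kb. dhc-4 led the motor proteins. Synaptic genes had 1 host of 55, unc-64 (syntaxin), with 63.53, but 2 and 4 hosts from the replicate 1 and 2 lists alone. Of the other lists in this paragraph, the replicate 1 list alone gave 8 nuclear hormone receptor hosts and 0 pharynx hosts, and the replicate 2 list alone gave 3 ion channel hosts, of 5 reported, and 2 muscle hosts, of 4.

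Some large families were nearly empty. Chemoreceptor genes had 5 hosts of 1202 (0.416%) and 7.16 peaks per Mb, led by srt-52 with a signal of 103.6, though their weaker intronic peaks stood at 223 per Mb, close to the 236 for all genes. There was no host among 42 germ line genes, 37 neuronal fate factors, 33 cell death and engulfment genes, 12 Hox genes and cofactors, 42 homeobox genes of the ceh series, 59 neuropeptide and insulin-like genes, 34 potassium channels of the twk series, 16 ribosomal protein genes or the 1 histone gene with reachable intron sequence. These zeros did not all hold in single replicate lists: neuronal fate factors and twk channels each had 1 host from the replicate 1 list and 2 from the replicate 2 list, and the cell death and ceh lists each had 1 from the replicate 1 list. In the neuronal fate list, whose reachable sequence was 90.4 kb, the weaker intronic peaks stood at 288 per Mb. With so little intron sequence in some lists, an empty list sets no firm limit on their density.

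**Figure D5:**
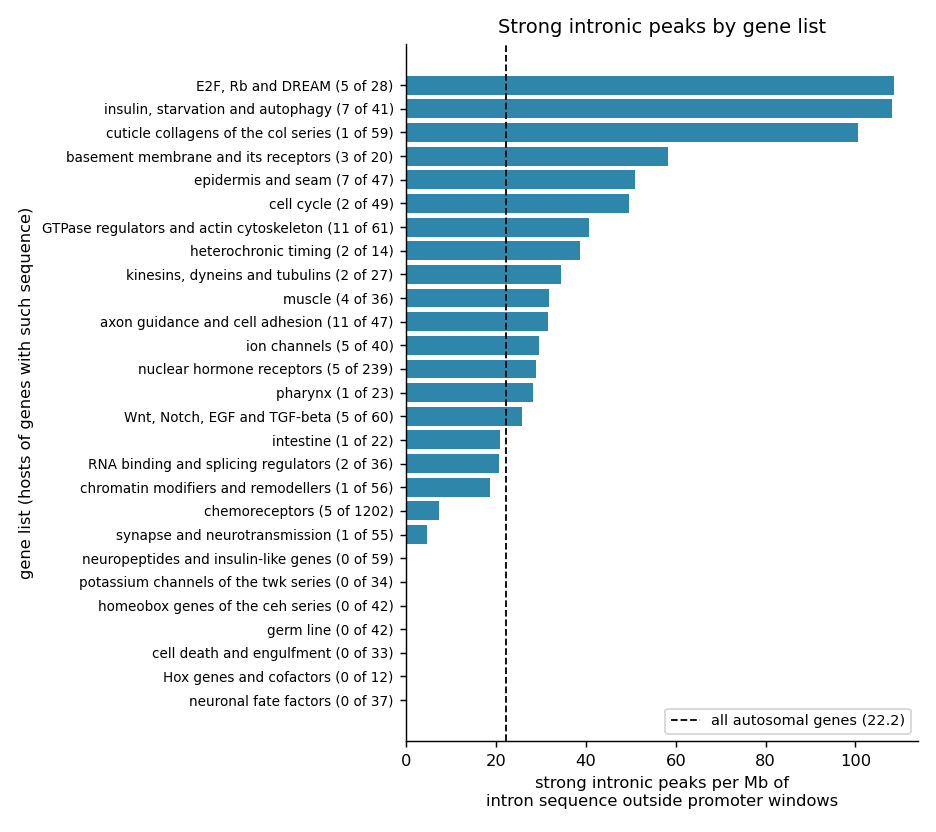
Strong intronic peaks per Mb of intron sequence outside promoter windows (x axis) for 27 gene lists (y axis), each with the number of host genes and of genes with such sequence. Lists with under 25 kb of such sequence are left out, and the dashed line marks all autosomal genes at 22.2. The E2F, Rb and DREAM list and the insulin, starvation and autophagy list stand at 109 and 108, and 7 lists stand at 0. The list labelled cuticle collagens stands at 101. All its peaks are in col-99, a membrane collagen, and no other gene of it is a host.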

How the data were processed

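ChIP-seq peaks were analysed from 2 biological replicates of 1 group. The authors deposited a list of 30000 peaks for each replicate and for the replicates pooled, and a list of 430 peaks thresholded by the IDR, all on ce11 and made against a control alignment, per the labels and the deposited file descriptions. Each peak has a deposited signal value and a deposited −log10 q-value. Which aligner and caller were used, and with what thresholds, is not given in the sources used here. Read depth is unknown, and the control reads were not analysed here.

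Python 3.11.15 with numpy 2.4.6, pandas 2.3.3 and scipy 1.17.1 was used, and figures were drawn with matplotlib 3.10.9. Positions came from Ensembl release 115 (WBcel235, the assembly of ce11). The summit was the deposited offset from the peak start, which in 99.9% of peaks is the middle of the interval. Replicate summits within 100 bp counted as matched. Motifs were sought on both strands within 100 bp of summits and in 201-bp windows tiled end to end over intron sequence under the same position rule. Intervals are 95% Wilson intervals over peaks and cover counting error only. The motif, word-copy and summit-matching steps were tested on simulated data.

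The peaks, the 29 gene lists and most motifs were chosen with earlier results of these data known, and 3 words after their counts or sequences were seen in this work. No test was made, since the pooled signal chose the peaks. The genes named are the 15 strongest peaks, 3 on each side of the rank limit, hosts of 4 or more, the strongest of each list, E2F-related genes with lin-39, egl-1 and unc-119, the 10 strongest with an E2F match or beside an RNA gene, and the 5 largest replicate gaps each way among the 100 strongest. Others named (Y67D2.5, rest of the hosts in 2 lists) were chosen after their values were seen. Alternatives changed the replicate list, the rank limit, the promoter window, the matching distance, the distance to RNA genes, the motif window and the transcript used to number introns. The sequence at the peak in dhc-4 is not reported here.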

Additional observations from a re-analysis of the deposited data

How the results depend on the processing

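Of 59 alternative values of the main measures, 35 stayed close to the reported value: within the 95% interval for a share, 1.5 times for a count, or 1 SD over the single replicate lists for the median host length. The others are given here. Selection from a single replicate list left 457 to 487 peaks, of which 44.6% (replicate 1) and 48.8% (replicate 2) were among the 457. Of these peaks 43.7 to 46.6% matched both lists within 100 bp. Each matched its own list by construction, so that share is the match to the other list. The median host was then 9860 to 10063 bp long. Ranks 1 to 1000 and the IDR list left 137 and 48 peaks in 118 and 42 genes. In these sets both replicates matched 85.4% and 91.7%, RNA genes lay within 200 bp of 27.0% and 39.6%, CHR was in 29.9% and 25%, and the median host was 11587 and 11968.5 bp long. The E2F share was 5.11% in ranks 1 to 1000, and intron 1 held 14.6% of the IDR peaks. Matching within 50 or 200 bp gave 55.6% or 91.0% in both replicates, and ranks 1 to 3000 of each list 18.2%. The summit lay inside an RNA gene in 7.002%. Windows of 50 bp each way gave an E2F share of 3.94% and a CHR share of 21.0%, and 150 bp a CHR share of 54.1%. No paired analysis was possible because there is 1 group and no test.

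Further limits are that peaks within an intron or beside copies of 1 gene family are not independent, that most summits are interval midpoints, and that whole larvae mix cell types. The control library was not analysed here, so how GC content, open chromatin or highly transcribed small RNA genes move the signal without EFL-3 was not tested.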

Other observations

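Other strong peaks within rank 3000 were seldom close to those described above. The nearest lay at a median of 6237 bp, under 1000 bp for 51 of the 457 peaks (11.2%) and under 2000 bp for 113 (24.7%). In genes, 139 summits fell in the first part of their intron when it was cut into 3 equal parts, 178 in the middle part and 136 in the last. The middle 50 percent of each chromosome held 21.1 peaks per Mb of reachable intron and the outer parts 23.0. Of the 457 windows, 38 were over 80% soft-masked repeat or low-complexity sequence in the RefSeq genome and 69 held none, and the median of 23.4% compares with 47.8% over tiled windows. A piRNA gene lay within 200 bp of 7 summits and a pseudogene of 4. Several peaks were in 2 overlapping host genes (9), and 7 were in an exon of a gene other than the host.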
